A study of Arabidopsis thaliana with 12 samples.

Results

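Transcripts of 3 calcium-signalling genes of *Arabidopsis thaliana*, *CML41* (AT3G50770), *CML30* (AT2G15680) and *AT4G32060*, were followed on 12 expression arrays of total RNA, 6 of the stn8 mutant and 6 of the wild type (WT). Each gene had 1 of the 3437 probes with a value, and the platform annotation named it as the only gene of that probe, as it did a single gene for 692 probes in all. The genes were chosen by their function and by the measured difference in intensity between stn8 and WT, so this difference is given as a description, without a test. Groups were read from the sample titles, which number the samples 1 to 6 in each group. The source field gives WT, ecotype columbia 0, also for the samples titled stn8, and the mutant allele, tissue, plant age, growth conditions and array design are not stated in the labels. Nothing in the labels says that the samples came from separate plants, so the errors and p-values cover array-to-array spread that may be technical. Across probes above 0 on all arrays, Pearson's r between arrays was 0.972 to 0.986 within stn8 and 0.952 to 0.969 among WT arrays 1 to 4, but 0.905 to 0.921 between WT arrays 5 or 6 and those 4 arrays; probes are not independent replicates.

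The STN8 gene encodes a thylakoid kinase, whose known substrates are core subunits of photosystem II. Calcium signals in plant cells are read by proteins with EF-hands, helix-loop-helix motifs that change shape on binding calcium. Calmodulin-like (CML) proteins are such sensors, with no enzyme activity of their own, and act by binding other proteins. *CML41* is known from Arabidopsis leaves as a sensor at plasmodesmata, the channels between plant cells, where it takes part in their closure by callose after bacterial flagellin is perceived. *CML30* encodes a calmodulin-like protein that has been located to mitochondria. *AT4G32060* encodes an EF-hand protein of mitochondria, related to animal MICU proteins, that limits calcium uptake through the mitochondrial calcium uniporter.

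The 3 genes did not differ in one direction. *CML41* was 3.27-fold higher in stn8 than in WT by the means of the deposited intensities. *CML30* was 2.93-fold lower in stn8, and *AT4G32060* was 7.83-fold lower. The deposited intensities are on a linear scale of unknown reference, and the level of one probe was not set against that of another.

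The *CML41* probe, of the sensor at plasmodesmata, read 1.36, 1.43, 1.36, 1.18, 1.95 and 1.80 on stn8 arrays 1 to 6, and 0.393, 0.351, 0.409, 0.413, 0.617 and 0.590 on WT arrays 1 to 6. Every stn8 value lay above every WT value, and arrays 5 and 6 were the highest pair in both groups. The means were 1.51 ± 0.294 in stn8 and 0.462 ± 0.112 in WT (SD, n = 6 each). After quantile normalization the fitted log2 difference, stn8 minus WT, was 1.54 ± 0.20 (SE).

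The *CML30* probe, of the mitochondrial sensor, read 0.549, 0.610, 0.543, 0.682, 0.596 and 0.792 on stn8 arrays 1 to 6, and 1.34, 1.35, 1.76, 1.88, 2.14 and 2.57 on WT arrays 1 to 6. Every stn8 value lay below every WT value. WT arrays 5 and 6 were the highest of WT, while in stn8 array 6 was the highest and array 5 lay among the others. The means were 0.629 ± 0.0945 in stn8 and 1.84 ± 0.474 in WT (SD, n = 6 each), with a fitted log2 difference of -1.73 ± 0.16 (SE).

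The *AT4G32060* probe, of the uniporter regulator, read 1.25, 0.987, 1.24, 1.12, 1.33 and 1.25 on stn8 arrays 1 to 6, and 10.04, 7.83, 9.63, 8.80, 10.7 and 9.09 on WT arrays 1 to 6. The groups lay far apart, with array 2 the lowest and array 5 the highest in both. The means were 1.20 ± 0.122 in stn8 and 9.35 ± 1.01 in WT (SD, n = 6 each), with a fitted log2 difference of -3.34 ± 0.09 (SE). None of the 3 probes was listed at 0 on any array.

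**Figure D1:**
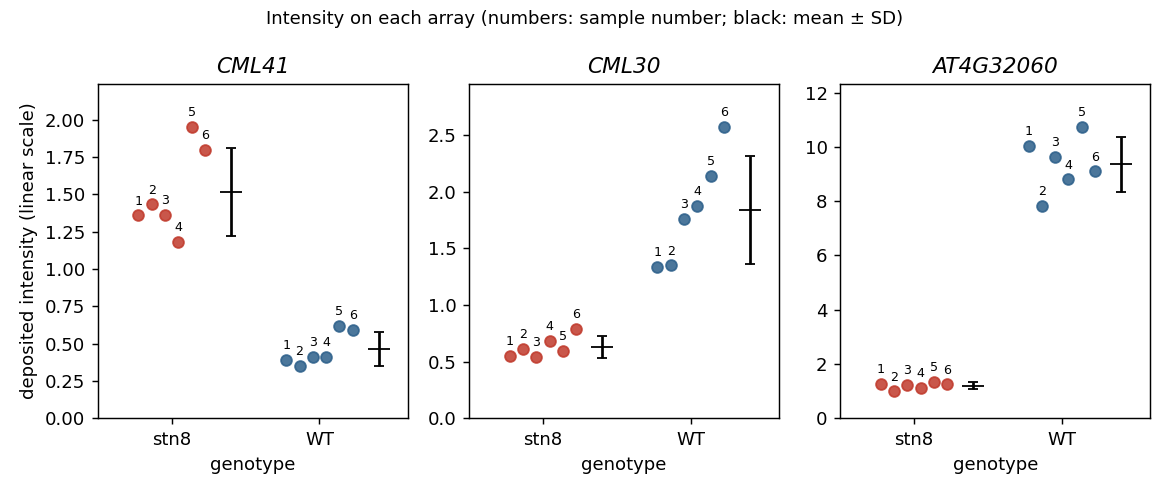
Deposited intensity (linear scale, axis from 0) of CML41, CML30 and AT4G32060 on each of the 6 stn8 arrays (red, left) and 6 WT arrays (blue, right). Small digits are sample numbers and black bars are the mean ± SD of 6 arrays. CML41 lies at 1.18 to 1.95 in stn8 and 0.351 to 0.617 in WT, and the other 2 genes lie lower in stn8 than in WT without overlap.

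Groups without overlap were common on these arrays. The deposited values of stn8 and WT did not overlap for 1912 of 3437 probes (55.6%), with stn8 higher for 28.6% and lower for 27.0%, so that the absence of overlap alone does not set the 3 genes apart. Their place among all differences varied. The median absolute log2 difference was 0.74 over the 616 probes that name 1 gene and had no value of 0. Of the 275 such genes lower in stn8, *AT4G32060* had the second largest fitted difference and *CML30* ranked 25. Of the 341 higher in stn8, *CML41* ranked 70. All 3 differences exceeded the median in size, and that of *AT4G32060* stood near the low end. Since the genes were chosen with this difference in view, the ranks describe them and support nothing further.

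**Figure D2:**
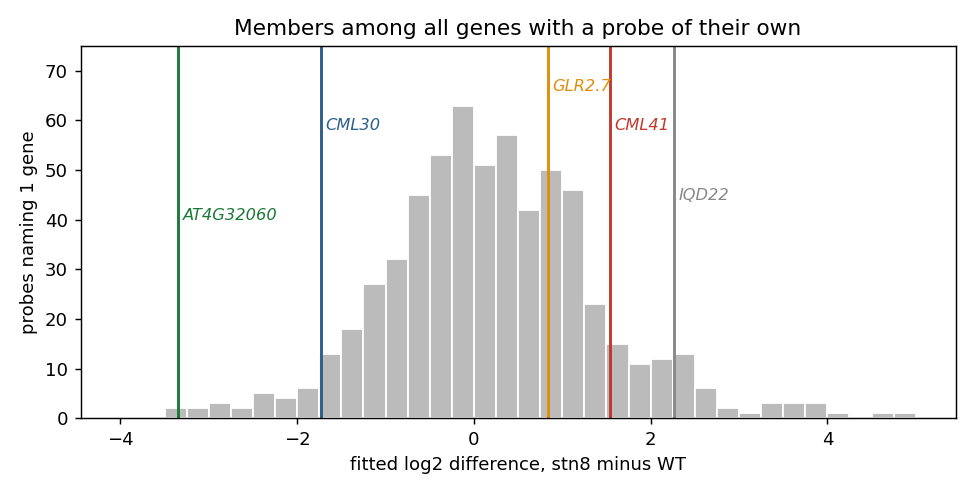
Histogram of the fitted log2 difference, stn8 minus WT, over the 616 probes naming 1 gene and above 0 on all 12 arrays, with vertical lines for named calcium genes. AT4G32060 at -3.34 lies near the lower end, CML30 at -1.73 and CML41 at 1.54 on opposite sides, and GLR2.7 at 0.84 and IQD22 at 2.26 on the side of CML41.

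The same-numbered arrays of the groups were then set against each other, since samples with the same number deviated together over all probes. For *AT4G32060*, the WT intensity divided by the stn8 intensity was 8.04, 7.93, 7.76, 7.86, 8.07 and 7.29 for numbers 1 to 6. For *CML30* the WT intensity divided by the stn8 intensity was 2.44, 2.22, 3.24, 2.75, 3.60 and 3.25 for numbers 1 to 6. The fold for *CML30* was lowest for numbers 1 and 2, where WT was lowest. For *CML41* the stn8 intensity divided by the WT intensity was 3.46, 4.07, 3.33, 2.87, 3.16 and 3.04. Since the groups do not overlap, the direction in these pairs is fixed by the values already given, and only the sizes of the ratios add to them. With the sample number as a block in the fit, the SE was 0.09 for *CML41*, 0.12 for *CML30* and 0.05 for *AT4G32060*, with the same log2 differences. With neighbouring arrays (1 and 2, 3 and 4, 5 and 6) averaged instead, it was 0.29 for *CML41*, 0.21 for *CML30* and 0.07 for *AT4G32060*. Neighbouring numbers of the other group also deviated together over all probes, with r of 0.0821 to 0.286. For the same number r was 0.17 to 0.333, and these ranges overlap. All 6 stn8 arrays had their highest r with the WT array of the same number. WT array 5, however, had a higher r with stn8 array 6 (0.286) than with stn8 array 5 (0.256).

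**Figure D3:**
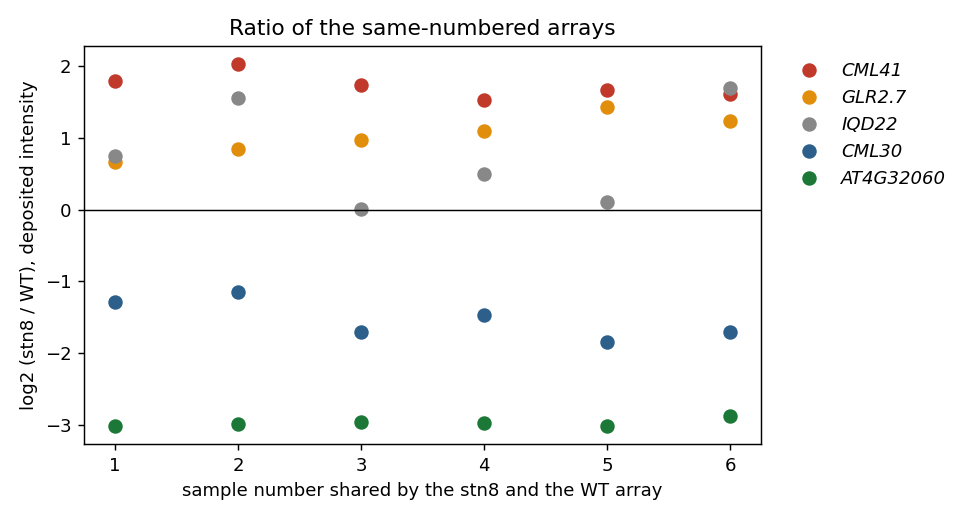
Log2 of stn8 over WT deposited intensity for each pair of same-numbered arrays (x axis, numbers 1 to 6), for the 3 members and for GLR2.7 and IQD22; the horizontal line marks no difference. The points of AT4G32060 lie in a narrow band, while those of IQD22 are spread and reach the line at number 3.

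The sample number itself had not been used to choose the genes, and its effect was tested with an additive limma fit of genotype and number over all probes. Of 3437 probes, 8 (0.233%) passed at an adjusted p of 0.05, and none of the 3 genes was among them. The adjusted p by limma on 12 arrays was 0.141 for *CML41*, 0.167 for *AT4G32060* and 0.348 for *CML30*. Before adjustment the limma p was 0.0103 for *CML41*, 0.016 for *AT4G32060* and 0.112 for *CML30*. An effect of the number on these genes thus did not pass the adjustment over 3437 probes, which does not show that there was none.

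The spread between arrays of 1 group differed among the 3 genes. For *CML41* the mean of arrays 5 and 6 was 1.40-fold that of arrays 1 to 4 in stn8 and 1.54-fold in WT. For *CML30* this ratio was 1.16 in stn8 and 1.49 in WT. For *AT4G32060* it was 1.12 in stn8 and 1.09 in WT, so the uniporter regulator varied least with this division of the arrays. Arrays 5 and 6 of WT stood apart over all probes, as given above. With arrays 1 to 4 alone the fitted log2 differences were 1.66 ± 0.07 for *CML41*, -1.58 ± 0.13 for *CML30* and -3.37 ± 0.12 for *AT4G32060* (SE). On normalized log2 values, *CML41* had an SD of 0.26 within stn8 and 0.44 within WT, at least as large as those of 81.6% of probes in stn8 and 83.2% in WT, out of 3079 above 0 on all arrays. The SDs of *AT4G32060*, 0.15 in stn8 and 0.17 in WT, were at least as large as those of 50.1% of probes in stn8 and 28.6% in WT.

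Few other genes of calcium signalling were found by symbol or synonym. Of 8 calcium lists drawn up by gene symbol, 3 had a probe that named 1 gene, and beyond *CML41* and *CML30* these were the channel gene *GLR2.7* and the calmodulin-binding genes *IQD22* and *iqd32* (spelled so in the gene table). No gene listed for CBL and CIPK, calcium-dependent kinases, or pumps and exchangers had a probe of its own. The same held for genes listed for the uniporter and for calcium-storing proteins of the endoplasmic reticulum. The uniporter list did not match *AT4G32060* itself, so other genes without such a symbol may have been missed. A probe of their own was also lacking for the genes listed for plasmodesmata and the flagellin response, among which *CML41* is known. The listed markers of seed, pollen, guard cell, root and epidermis had none either. The tissue and its composition were therefore not checked.

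Of these 3 other genes, 2 passed the limma test, both higher in stn8, beside 70.4% of all 3437 probes called, 34.7% higher and 35.8% lower. *GLR2.7*, a glutamate receptor-like cation channel that takes part in calcium entry during immune signalling, rose 2.04-fold. Its intensity was 1.07 to 1.29 in stn8 (median 1.17) and 0.480 to 0.679 in WT (median 0.559), with no overlap. The fitted log2 difference was 0.84 ± 0.09 (SE, adjusted p = 6.82e-06, limma). WT arrays 5 and 6 were next to each other in *GLR2.7* as they were in *CML41*, but as the lower end of WT, and the stn8 over WT ratio of *GLR2.7* was lowest for number 1 (1.58) and highest for number 5 (2.69).

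*IQD22*, of a family of calmodulin-binding proteins, was dim. It read 0.0553 to 0.107 in stn8 and 0.0189 to 0.0720 in WT, and the groups overlapped. The ratio of means was 1.58, whereas the fitted log2 difference was 2.26 ± 0.63 (SE, adjusted p = 0.00726, limma). Without normalization the log2 difference was 0.77 and with a pseudocount 0.74, and *IQD22* passed in both. The third gene, *iqd32* of the same family, averaged 0.108 ± 0.0357 in stn8 and 0.113 ± 0.0620 in WT (SD, n = 6 each), with WT array 1 listed at 0. Its fitted log2 difference of 1.65 (adjusted p = 0.377, limma) had the opposite sign to the difference of its means, and was 0.02 without WT array 1. The 3 genes had a median log2 difference of 1.65 in the fit and 0.74 with the pseudocount, beside 0.00 over all probes in both, and at 3 probes this describes no more than the genes themselves.

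The spots beside each gene were examined by their numbers, since the layout of the array was not given. Within 4 spot numbers, *CML41* had 5 other spots with a value, none above 0.723 on average in either group. Of these, 2 passed as higher in stn8 and 1 as lower by limma. The nearest on 1 side, at a distance of 1, averaged 0.696 in stn8 and 0.723 in WT. The nearest spot that was higher in stn8 by the test lay 3 numbers away and averaged 0.685 in stn8 and 0.335 in WT. None of these 5 spots with a value thus averaged above 1 in either group.

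*CML30* lay 2 spot numbers from *AT3G12000*, a gene for an S-locus-related protein, which averaged 39.8 ± 1.64 in stn8 and 1.38 ± 0.377 in WT (SD, n = 6 each). The spot between them, which names 2 genes, was listed at 0 on all 6 stn8 arrays and averaged 0.0935 in WT. On the other side, *AT1G11800* at a distance of 1 averaged 0.405 in stn8 and 0.763 in WT, and *AT2G40980* at a distance of 2 averaged 0.346 in stn8 and 2.68 in WT. The spot at a distance of 4 averaged 0.0296 in stn8 and 0.0736 in WT and did not pass (adjusted p = 0.276, limma). All 4 other spots within this stretch were therefore lower in stn8 on average, as *CML30* was, beside the spot that was 28.7-fold higher. The part of the bright neighbour in the values of *CML30* was not tested.

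*AT4G32060* had no bright spot among the 4 others with a value within 4 spot numbers. These averaged between 0.0986 and 0.404 in stn8 and between 0.212 and 0.383 in WT. Of these, 1 passed as lower and 1 as higher in stn8 by limma, and the spot at a distance of 1 on the lower side had a log2 difference of 0.00 ± 0.07 (SE). The spot that passed as lower, 4 numbers away, averaged 0.0986 in stn8 and 0.212 in WT.

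**Figure D4:**
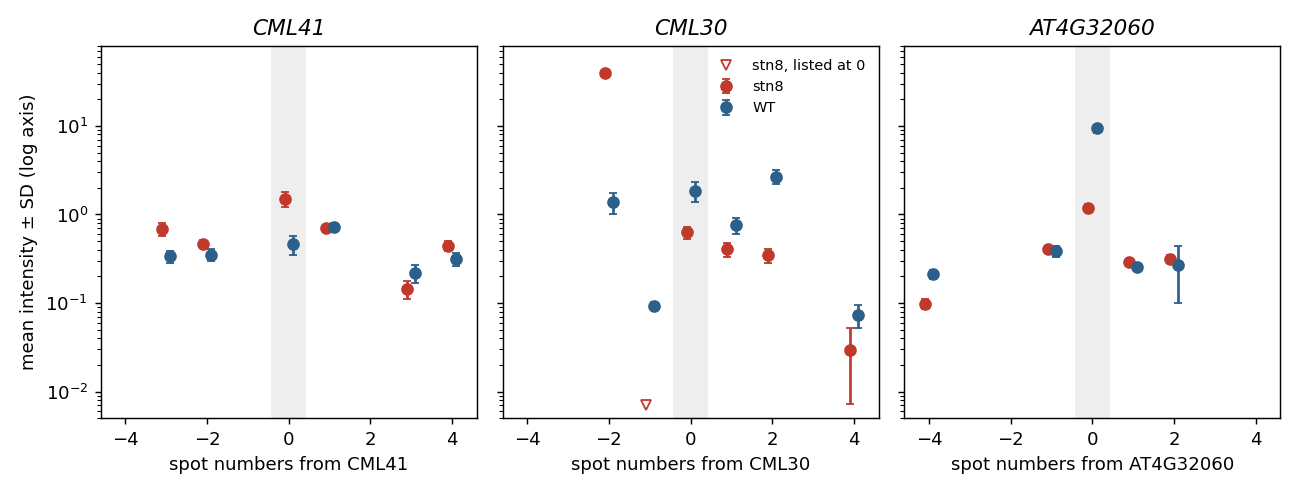
Mean intensity ± SD of 6 arrays (log axis) of the spots within 4 spot numbers of each gene, stn8 in red left of WT in blue; the grey band marks the gene itself and the open triangle a spot listed at 0 on all stn8 arrays. AT3G12000 at 39.8 in stn8 lies 2 spot numbers from CML30, and no such bright spot is among those shown for CML41 or AT4G32060.

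For each gene, the probes most like it were found by Pearson's r of normalized log2 values over 12 arrays, among 615 other genes above 0 on all arrays. This measure mostly follows the difference between the groups, so the genes found share its direction. *CML41* was most like *AT5G64150* (r = 0.992), then *AT3G06570*, *AT2G15440*, *AT2G02590* and *AT3G55070* (r = 0.976 for the last), with ratios of stn8 over WT from 2.01 to 2.64. *CML30* was most like *AT3G09050* (r = 0.986), *AT2G19280*, *AT4G25290*, *AT2G40980* and *AT3G57630* (r = 0.981 for the last). Of these, *AT2G40980* is the spot 2 numbers away. *AT4G32060* was most like *AT1G62250* (r = 0.995), which averaged 1.09 in stn8 and 8.05 in WT, then *CUTA*, *XERICO*, *AT5G40030* and *AT4G16490* (r = 0.992 for the last). *CUTA* encodes a copper-binding plastid protein and *XERICO* a RING protein of the abscisic acid response. Between the members, *CML30* and *AT4G32060* had r = 0.953, which placed *CML30* at rank 58 of the 615 genes for *AT4G32060*.

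Likeness looked different once the group means were removed. Over the 12 deviations, *CML41* was most like *AT5G64150* (r = 0.944), *PPDK* (r = 0.933) and *AT3G06570* (r = 0.910). *PPDK*, which encodes pyruvate phosphate dikinase, nevertheless differed the other way between the genotypes, with 0.274 ± 0.0277 in stn8 and 0.583 ± 0.0820 in WT (SD, n = 6 each). *CML30* was most like *AT3G12000* (r = 0.902), the bright spot 2 numbers away, then *AT4G03150* (r = 0.900) and *AT5G39410* (r = 0.885). *AT4G03150* was dim, at 0.0205 to 0.248 in WT, and its log2 SD was 2.89 in WT against 0.30 in stn8. That of *AT5G39410* was 0.37 in WT against 0.07 in stn8. The 12 deviations pool both groups. Across WT arrays 1 to 6 the deposited intensities of *CML30* and *AT3G12000* both rose, from 1.34 to 2.57 and from 0.94 to 1.93. Within stn8, *AT3G12000* varied little, with a log2 SD of 0.05 against 0.43 in WT. Between the groups these genes differed in opposite directions. *AT4G32060* was most like *AT4G18180* (r = 0.847), which was 5.84-fold higher in stn8, then *AT2G35450* (r = 0.792), which lies 5 spot numbers away, and *AT2G36480* (r = 0.780). The deviations of *CML41* and *CML30* had r = 0.659 with each other, which placed *CML41* at rank 75 of the 615 genes for *CML30*. Those of *AT4G32060* had r = 0.205 with *CML41* and r = -0.04 with *CML30*.

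Such likeness of deviations went with the place of the spots. Over 2078 pairs of probes 1 spot number apart, both above 0 on all arrays, the median r of the deviations was 0.387. It was 0.311 at a distance of 4, 0.223 at 24, 0.0226 at 96 and -0.0151 at 500. For the log2 differences between the genotypes another measure was used, their r across pairs, which is not on the same scale. It was 0.056 across the same 2078 pairs. Over the distances looked at it ran from -0.0346, at 15, to 0.119, at 6. Probes are not independent replicates, and all pairs share the same 12 arrays. Within 4 spot numbers, r with *CML41* was 0.482 to 0.872 for 5 spots, against a median of 0.0866 over probes more than 100 numbers away. For *CML30* it was 0.537 to 0.902 for the 3 spots above 0, against 0.0993. For *AT4G32060* it was -0.566 to -0.17 for 4 spots, against 0.00768. These r pool the deviations of both groups and were not computed for each group alone. The log2 SD of *CML30* was 0.36 in WT against 0.18 in stn8, so WT weighs more in its r. On the pooled measure *CML41* and *CML30* varied with their neighbours, while for *AT4G32060* no spot within 4 numbers had an r above 0. This contrast depends on the limit of 4. At a distance of 5 from *AT4G32060*, *AT2G35450* on the lower side had r = 0.792, and the spot on the upper side -0.314.

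**Figure D5:**
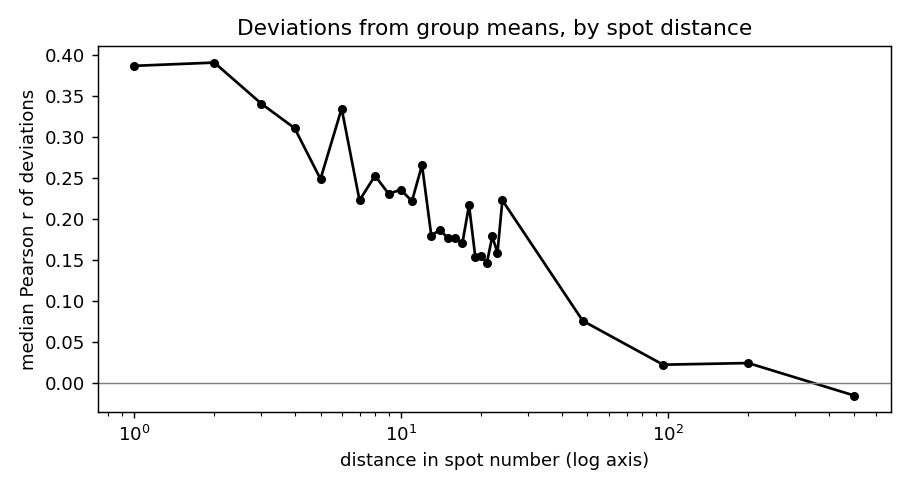
Median Pearson r, over pairs of probes above 0 on all arrays, of the 12 deviations from the group means, by the distance of the pair in spot number (log axis). It is 0.387 for adjacent numbers and near 0 from 96 on, with higher points at multiples of 6.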

How the data were processed

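Total RNA of 6 stn8 and 6 WT samples was measured on 12 arrays. The deposited values are intensities, linear in scale by their range; the labels do not state how the authors corrected background, scaled arrays or came to list values at 0. Of 3439 rows, 2 held no value. The platform annotation named 1 gene for 692 probes, several for 869, and did not list 1876; 690 of the 692 matched the TAIR10.1 gene table. All value columns were used. The number of arrays limits the precision.

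On each array, zeros took the value of its dimmest positive probe before conversion to log2. Array medians differed by 0.311, above the limit of 0.1, so arrays were quantile normalized and compared by a moderated linear model, two-sided (limma 3.58.1, R 4.3.3; Benjamini-Hochberg over 3437 probes, adjusted p threshold 0.05). The fit was also run on simulated data, with independent noise on each array and only probes above 0 on all arrays. Such data hold neither the shared deviations nor the zeros of these arrays, so no conclusion was drawn from them. Figures were drawn with matplotlib 3.10.9.

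Array medians were 0.331 to 0.349 in stn8 and 0.297 to 0.369 in WT, and 220 to 254 probes were at 0 on a stn8 array against 173 to 190 on a WT array. Same-numbered samples deviated together from their group means (r = 0.17 to 0.333 in all 6 pairs, above 0.1; -0.284 to 0.286 between different numbers); the numbers come from the titles. The test of the sample number and the values by spot distance were chosen after the data were seen.

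The 3 genes and the 12 gene lists were chosen with earlier results of these data known. Genes were named by rule: the members, all listed genes with a probe of their own, the 5 most alike by level and 3 by deviation for each member, and spots within 4 numbers. The gene table held no descriptions, so the lists by description (calcium-related, mitochondrial) searched its synonyms and added no probe. Alternatives were other normalizations, a pseudocount of 0.0584 (percentile 5 of all values above 0), removal of the dimmest 33.3% of probes, other variance models, the replicate block, averaged or omitted neighbouring arrays and each array left out.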

Additional observations from a re-analysis of the deposited data

Results flagged for a closer look

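An array far from the rest of its group was looked for in 12 sets of 6 intensities, those of *CML41*, *CML30*, *AT4G32060*, *GLR2.7*, *IQD22* and *iqd32* in stn8 and in WT. None passed Dixon's limit of 0.625 for the gap over the range, and the closest was *iqd32* in WT at 0.612, from WT array 1 listed at 0.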

How the results depend on the processing

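The directions of *CML41*, *CML30* and *AT4G32060* held under all 21 alternatives. Log2 differences ran from 1.43 to 1.72 for *CML41*, -1.82 to -1.52 for *CML30* and -3.41 to -2.97 for *AT4G32060*; the last moved by more than its spread between arrays without normalization (-2.97) and with median centring (-3.02), and the cause was not tested. With 1 array left out the ranges were 1.47 to 1.66, -1.82 to -1.63 and -3.40 to -3.27. Probes called numbered 1857 (the dimmest removed, 2291 tested) to 2477, and 2342 to 2421 with 1 array left out; the replicate block gave 2477. The 4 of 5 listed calcium probes called (beside 70.4% of all probes; 4 with any 1 array left out, and 3 without the dimmest probes, where *IQD22* and *iqd32* were not tested) include *CML41* and *CML30*, chosen on this contrast, so this count supports nothing about them. Of 27 other named genes, 26 kept their call with the replicate block, the exception being *AT1G05340*, 3 spot numbers from *CML41*, which was called only there, without normalization, with median centring and without WT array 3 (adjusted p = 0.0123 with the block, 0.0123 to 0.0414 over these). The difference of *AT4G03150* was 1.53 in the fit and -0.0307 with median centring, and that of *AT5G39410* -0.11 and 0.122 with arrays 1 to 4 only; neither was called in these fits, and the cause was not tested, though *AT4G03150* was called at 2.85 with arrays 1 to 4 only. The 8 probes called for the sample number were 5 without normalization, 3 with median centring, 10 with cyclic loess and 15 with the pseudocount, with none of the 3 genes among them. Dim probes such as *IQD22* and *iqd32* limit what fitted differences show.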
